A study of Rattus norvegicus with 42 samples.

Results

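Eicosanoids are signalling lipids made from arachidonic acid, and their enzymes were followed here in liver, brain and lung of a rat and in mixtures of the 3 tissues. The probe sets described are those whose platform annotation names 1 gene, with that gene being Ptgds, Ptgs1, Ptgs2, Ptgis, Ptges, Tbxas1, Hpgd, Alox5, Alox5ap or Alox15. All 10 symbols were found, with 13 of the 31042 probe sets tested and 10 of the 14217 genes measured. Ptgs1, Ptges and Hpgd have 2 probe sets each and the other 7 genes have 1.

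The tissues came from 1 untreated animal of 9 to 12 weeks. Total RNA was labelled from 1 µg, and the labelled cRNA was hybridised to Affymetrix rat arrays either alone or after the cRNAs had been combined. The 42 arrays form 14 groups of 3 technical replicates: pure liver, pure brain, pure lung and 11 mixtures. Each mixture is named here by 3 percentages from its label, first liver, then brain, then lung: 5/25/70, 70/5/25, 25/70/5, 70/25/5, 45/45/10, 55/20/25, 50/30/20, 55/30/15, 50/40/10, 60/35/5 and 65/34/1. Every replicate is an array of the same RNA, so the p-values speak of array-to-array spread and say nothing of other animals. All levels are log2 values after RMA, a background correction, quantile normalisation and probe summary that gives each probe set 1 value per array. Levels of different probe sets are not compared with each other, because probes bind with different strength.

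Array medians lay between 5.48 and 5.83, and the median SD between replicate arrays was 0.071 to 0.123 across the groups. Probe sets for the bacterial gene dap, which match no rat gene, gave 2.43 to 3.09 on the pure arrays, and a fold whose lower level is near 3 or 4 is approximate. The defining markers followed the labels: 9 of 9 genes of liver parenchyma were enriched in liver, 4 of 4 neuronal and 3 of 3 oligodendrocyte genes in brain, and 3 of 3 genes of alveolar type 2 cells in lung. Summed linear levels of the liver parenchyma genes were 80285 to 82491 in liver, 132 to 141 in lung and 5212 to 5346 in brain, and the part of this in the comparisons with brain was not tested. Most of the brain sum was Alb, at 12.21 in brain and 14.31 in liver. Liver exceeded brain by 4.28-fold for Alb and by 58.2-fold (Apoc3) to 343-fold (Serpina6) for the others. The median difference of all probe sets, liver minus brain, was 0.18 (log2) in the deposited values, 0.42 after centring each array on its median and -0.66 after a shift by a curve fitted to the hybridisation controls of each array. For liver minus lung these medians were 0.12, 0.37 and -0.80, so a small difference between liver and another tissue can take either sign by the choice of scale.

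In this pathway, phospholipases free arachidonic acid from membranes, and the cyclooxygenases Ptgs1 and Ptgs2 turn it into prostaglandin H2. Terminal synthases then make prostaglandin D2 (Ptgds), prostaglandin E2 (Ptges), prostacyclin (Ptgis) or thromboxane (Tbxas1), and Hpgd oxidises prostaglandins to inactive forms. In the other branch the lipoxygenase Alox5, with its membrane partner Alox5ap, makes leukotriene precursors, while Alox15 oxidises arachidonic and linoleic acid at other positions. Prostaglandin D2 is known from brain as a signal of sleep, prostacyclin and thromboxane act on vessels and platelets, leukotrienes act in airways and on leukocytes, and the lung is a known site of prostaglandin breakdown.

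In brain, Ptgds and Ptgs2 were enriched, meaning called higher than in both other tissues at an adjusted p under 0.05 and at least 2-fold by limma. In lung, 7 probe sets of 6 genes were enriched: those of Ptgis, Tbxas1, Hpgd, Alox5, Alox5ap and Alox15. In liver, 0 of the 13 probe sets were enriched; 1 of them, a Ptges probe set, was above both other tissues at an unadjusted p under 0.05 with no fold limit, against 3 in brain and 8 in lung. By that looser rule, 32.6% of all probe sets were above both others in liver, 24.2% in brain and 23.2% in lung. Over all probe sets, 7.28% passed the 2-fold rule for enrichment in liver, 11.5% in brain and 8.95% in lung. Tbxas1 left the lung group, making it 6 probe sets of 5 genes, when arrays were centred on their medians, when quantile normalisation was repeated, and when liver replicate 1 or lung replicate 3 was left out. With the curve through the hybridisation controls Ptgs1 joined it, making 8 probe sets of 7 genes. In the plot of pure levels, the brain arrays stand alone on the right for Ptgds and Ptgs2 and the lung arrays for the 7 enriched in lung. By less than 2-fold between means, lung also stands apart for Ptgs1 1368259_at, brain for Ptges 1368014_at and liver for Ptges 1368015_at.

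**Figure D1:**
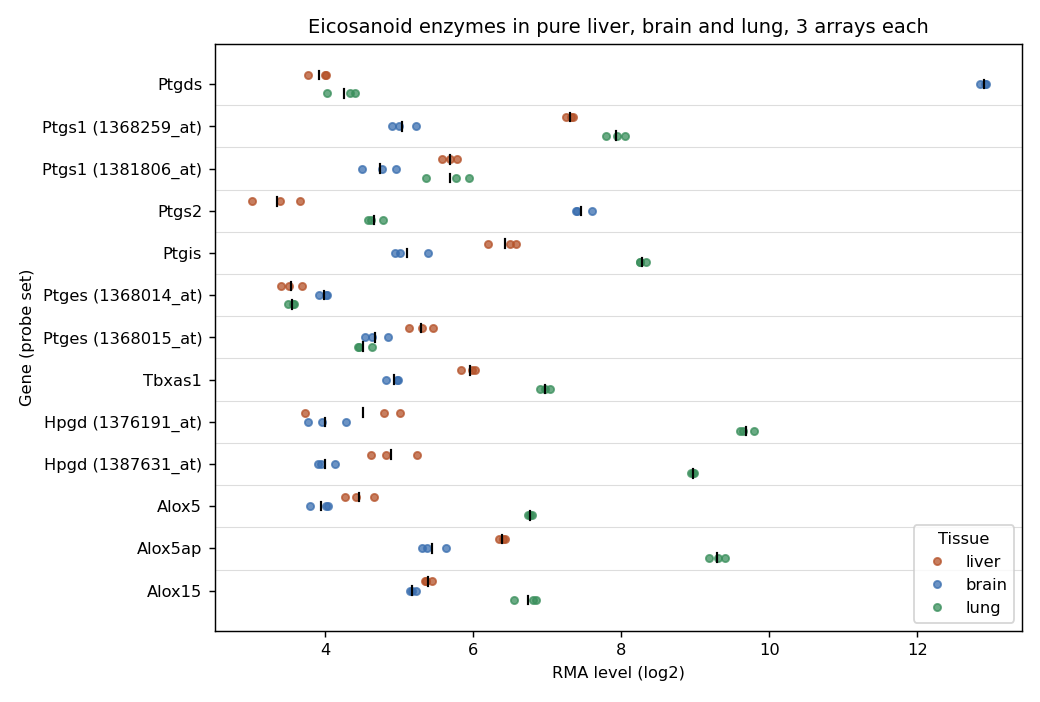
Levels (log2, RMA; horizontal axis) of the 13 probe sets in the 3 arrays each of pure liver, brain and lung; points are arrays and black bars are means. Ptgds in brain lies between 12.85 and 12.93, while its liver and lung arrays lie between 3.76 and 4.40; the Hpgd, Alox5, Alox5ap, Ptgis, Tbxas1 and Alox15 arrays of lung lie above all liver and brain arrays.

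Ptgs1 is the cyclooxygenase that most tissues express without stimulation. Its probe set 1368259_at read 7.35, 7.32 and 7.25 in liver, 5.22, 4.99 and 4.91 in brain, and 7.94, 8.05 and 7.79 in lung. The groups do not overlap, with brain lowest and lung highest. Liver was 4.81-fold above brain (log2 difference 2.27, SE 0.08, limma adjusted p = 1.74e-23) and lung 7.42-fold above brain (2.89 higher, 1.53e-26), while lung exceeded liver by 1.54-fold, below the 2-fold limit except with the curve through the hybridisation controls (liver minus lung -1.57). The second probe set, 1381806_at, gave smaller differences: its liver mean was 5.68, its brain mean 4.74 and its lung mean 5.69. There brain was again lowest, by 1.93-fold and 1.94-fold. Liver minus brain passed the 2-fold limit with median centring (1.19), repeated quantile normalisation (1.19), subtraction of the 5th percentile (1.17) and without liver replicate 1 (1.0) or brain replicate 3 (1.05), and was 0.0842 with the curve. Brain minus lung passed it with the curve (-1.02), subtraction of the 5th percentile (-1.22) and without brain replicate 3 (-1.06) or lung replicate 2 (-1.12). On this probe set liver and lung overlapped (difference -0.01, 95% interval -0.28 to 0.26, limma adjusted p = 0.970).

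Ptgs2 is the cyclooxygenase best known for its induction by inflammation, and it is also expressed by neurons. Unlike Ptgs1, it was highest in brain. Its arrays read 3.65, 3.39 and 3.00 in liver, 7.39, 7.39 and 7.60 in brain, and 4.57, 4.77 and 4.61 in lung. Brain was 17.3-fold above liver (log2 difference -4.11 ± 0.12 SE as liver minus brain, limma adjusted p = 5.64e-26) and 7.0-fold above lung (2.81 ± 0.12, 5.81e-21). Lung was 2.47-fold above liver, where the arrays reach down to the level of the bacterial controls. All 4 measured neuronal markers were enriched in brain too, with summed linear levels of 17485 to 17607 there against 54.6 to 63.2 in liver and 41.0 to 50.4 in lung; their part in the Ptgs2 and Ptgds levels was not tested. In bulk tissue, fewer cells of a type and less RNA per cell cannot be told apart.

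Ptgds, the synthase of prostaglandin D2 in the nervous system, had the widest range of the 13 probe sets. It read 12.85, 12.92 and 12.93 in brain, 3.76, 4.01 and 3.99 in liver, and 4.40, 4.02 and 4.33 in lung. No brain array comes near any other array, and liver and lung are both close to the lower end of the scale. Brain was 506-fold above liver (95% interval 463 to 552) and lung was 1.26-fold above liver, which is below the 2-fold limit. The curve through the hybridisation controls took liver minus lung past that limit (log2 difference -1.27), and the other 3 scales tried left it between -0.92 and -0.0775. The absolute difference between liver and brain was at percentile 99.99 of all probe sets. Ptgds is known from the membranes around the brain, the choroid plexus and oligodendrocytes. Of the choroid plexus list, Otx2 and Folr1 were enriched in brain and 3 of 5 measured genes were not, among them Ttr at 13.33 in liver and 13.09 in brain. Of the leptomeningeal list, 1 of 5 measured genes (Igf2) was enriched in brain and 3 in lung. All 3 oligodendrocyte genes were enriched in brain. Which of these cells the Ptgds signal came from was not tested.

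The second prostaglandin D2 synthase, Hpgds, which is known from mast cells and macrophages, had another pattern. It read 6.91 ± 0.18 (SD, n = 3) in liver, 4.34 ± 0.18 in brain and 5.09 ± 0.05 in lung, and was enriched in liver by 3.52-fold over lung. The 2 enzymes for the same product were highest in different tissues, Ptgds in brain and Hpgds in liver.

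Ptgis makes prostacyclin and is known from vessel walls. Its arrays read 8.34, 8.25 and 8.25 in lung, 6.50, 6.58 and 6.20 in liver, and 5.38, 5.01 and 4.93 in brain, with no overlap. Lung was 3.62-fold above liver (log2 difference 1.86 higher, SE 0.10, limma adjusted p = 1.41e-17) and 9.01-fold above brain. Liver was 2.49-fold above brain, and this call was lost under the curve through the hybridisation controls (difference 0.45). Tbxas1, the thromboxane synthase of platelets and macrophages, followed the same order with smaller steps, at 6.97, 6.90 and 7.03 in lung, 5.83, 6.03 and 5.99 in liver, and 4.96, 4.98 and 4.82 in brain. Lung was 2.03-fold above liver and 4.13-fold above brain, and liver 2.03-fold above brain, so 2 of these 3 differences sit on the 2-fold limit. Leaving out liver replicate 1 or lung replicate 3 took the first under the limit (differences -0.96 and -0.99, liver minus lung). Leaving out liver replicate 2 or brain replicate 3 took the last under it (0.99 and 0.97).

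Ptges, the inducible synthase of prostaglandin E2, was low and its probe sets disagreed. Probe set 1368014_at read 3.53 ± 0.15 (SD, n = 3) in liver, 3.98 ± 0.05 in brain and 3.55 ± 0.04 in lung, with brain highest. Probe set 1368015_at read 5.29 ± 0.16 in liver, 4.67 ± 0.16 in brain and 4.50 ± 0.11 in lung, with liver highest. None of the 6 differences reached 2-fold in the deposited values, and the sign of liver against lung turned with the scale on both probe sets. On other scales 2 of them passed the limit. Liver minus brain on 1368014_at was -1.32 with the curve through the hybridisation controls and -1.01 with the 5th percentile subtracted, and liver minus lung on 1368015_at was 1.04 after centring on the median and 1.0 after subtraction of the 5th percentile. Of the other enzymes that make prostaglandin E2, neither was enriched in a tissue. Ptges3 read 11.47, 11.44 and 11.46 in liver, brain and lung, and Ptges2 read 8.29, 8.47 and 7.53, with lung lowest.

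Hpgd, which starts the breakdown of prostaglandins, separated lung from both other tissues on both probe sets. On 1376191_at the lung arrays read 9.65, 9.61 and 9.80, the brain arrays 3.76, 3.95 and 4.27, and the liver arrays 5.01, 3.72 and 4.80. Lung stood far above, and the liver arrays, with an SD of 0.69, spanned the range of brain. Lung was 36.0-fold above liver (log2 difference 5.17 higher, SE 0.17, limma adjusted p = 4.89e-24) and 51.6-fold above brain. On 1387631_at the lung arrays read 8.94, 8.98 and 8.97, against 5.24, 4.82 and 4.62 in liver and 4.12, 3.95 and 3.90 in brain. The folds were 16.8 over liver and 31.5 over brain, smaller than on the other probe set. Slco2a1, the transporter that brings prostaglandins into cells for breakdown, did not share this pattern: liver read 10.91, brain 4.98 and lung 11.43. Abcc4, which exports them, was enriched in lung by 3.26-fold.

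Alox5 and Alox5ap, the pair that starts leukotriene synthesis, were both enriched in lung. Alox5 read 6.74, 6.79 and 6.76 in lung, 4.66, 4.27 and 4.42 in liver, and 3.79, 4.01 and 4.04 in brain. That is 4.98-fold above liver (limma adjusted p = 7.04e-19) and 7.06-fold above brain (1.91e-21), with no overlap. Alox5ap read 9.40, 9.19 and 9.31 in lung, 6.34, 6.40 and 6.42 in liver, and 5.63, 5.30 and 5.37 in brain. Its folds were 7.51 over liver and 14.6 over brain, again without overlap. Alox15 was closer between tissues, at 6.54, 6.81 and 6.85 in lung, 5.44, 5.36 and 5.34 in liver, and 5.14, 5.22 and 5.16 in brain. Lung was 2.55-fold above liver and 2.94-fold above brain.

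Markers of leukocytes and vessels were enriched in lung beside these genes. All 3 measured neutrophil genes were, with summed linear levels of 1333 to 1459 in lung, 92.8 to 139 in liver and 34.1 to 37.3 in brain. Of macrophage genes 1 of 4 (Lyz2) was, while Mrc1 read 9.44 in lung and 9.09 in liver and Adgre1 5.82 and 6.16. Mast cell genes were enriched in lung for 2 of 5 (Cpa3 and Kit), platelet genes for 1 of 4 (Pf4), with Itga2b enriched in liver, and eosinophil genes for 1 of 3 (Siglec5), with Epx and Prg2 between 2.94 and 3.56 in all 3 tissues. Endothelium and smooth muscle had 4 of 4 genes each enriched in lung, and the endothelial sum was 5917 to 6093 in lung, 347 to 377 in liver and 395 to 409 in brain. The part of these cells in the lung levels of the lipoxygenase genes, Ptgis, Tbxas1 and Hpgd was not tested.

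Counted over the 13 probe sets, liver against brain gave 5 calls, 3 higher in liver (Ptgs1, Ptgis and Tbxas1) and 2 higher in brain (Ptgds and Ptgs2). Over all probe sets 33.5% were called, 14.6% higher in liver and 18.9% higher in brain. Liver against lung gave 8 calls, with 0 higher in liver and 8 higher in lung, where 28% of all probe sets were called, 10.8% higher in liver and 17.2% higher in lung. Brain against lung gave 10 calls, 2 higher in brain and 8 higher in lung, where 31% of all were called, 15% higher in brain and 15.9% higher in lung. Arrays of the pair of tissues did not overlap for 12, 11 and 12 of the 13 probe sets in these comparisons, against 81.2%, 78.6% and 73.3% of all probe sets. Median differences of the members were 0.62, -1.30 and -2.05 (log2) in that order, beside 0.18, 0.12 and -0.03 for all probe sets. Centring the arrays on their medians raised the calls for liver against brain to 8, and subtraction of the 5th percentile to 9. Shares of all probe sets are given here for the deposited values only, so these rises may hold for other probe sets too.

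Upstream sequence was available from RefSeq (GRCr8) for 7 of the 10 genes, as the 250 bases before the gene start. The 5 shown are those of the genes enriched in brain (Ptgds and Ptgs2) and in lung (Hpgd, Alox5 and Tbxas1), so that genes high in the same tissue can be set side by side. Their positions are chr3:28682979-28683228, minus strand for Ptgds, chr13:64713813-64714062, plus strand for Ptgs2, chr16:39034832-39035081, minus strand for Hpgd, chr4:151251127-151251376, minus strand for Alox5 and chr4:68631635-68631884, plus strand for Tbxas1. Each is written 5′ to 3′ on the strand of its gene, and capitals mark the motifs searched on both strands: the TATA box TATAAA, the GC box CCGCCC, the E-box CACGTG and the CCAAT box.
Ptgds: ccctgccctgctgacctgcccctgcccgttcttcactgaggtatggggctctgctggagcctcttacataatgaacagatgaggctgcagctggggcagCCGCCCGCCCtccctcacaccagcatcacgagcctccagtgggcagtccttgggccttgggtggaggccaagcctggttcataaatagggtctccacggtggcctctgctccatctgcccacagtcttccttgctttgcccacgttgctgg
Ptgs2: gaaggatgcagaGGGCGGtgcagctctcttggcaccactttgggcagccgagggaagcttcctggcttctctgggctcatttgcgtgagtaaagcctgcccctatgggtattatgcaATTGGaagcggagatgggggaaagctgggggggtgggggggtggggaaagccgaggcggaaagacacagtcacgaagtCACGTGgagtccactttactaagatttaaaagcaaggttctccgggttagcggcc
Hpgd: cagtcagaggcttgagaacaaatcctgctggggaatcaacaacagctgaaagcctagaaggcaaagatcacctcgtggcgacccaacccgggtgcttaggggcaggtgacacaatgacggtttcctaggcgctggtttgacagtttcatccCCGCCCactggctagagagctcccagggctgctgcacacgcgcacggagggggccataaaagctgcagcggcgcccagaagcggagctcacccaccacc
Alox5: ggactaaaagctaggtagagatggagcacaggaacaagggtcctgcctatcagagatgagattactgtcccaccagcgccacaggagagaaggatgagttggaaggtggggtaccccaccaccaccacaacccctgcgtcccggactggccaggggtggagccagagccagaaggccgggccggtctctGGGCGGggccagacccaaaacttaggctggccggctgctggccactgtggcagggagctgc
Tbxas1: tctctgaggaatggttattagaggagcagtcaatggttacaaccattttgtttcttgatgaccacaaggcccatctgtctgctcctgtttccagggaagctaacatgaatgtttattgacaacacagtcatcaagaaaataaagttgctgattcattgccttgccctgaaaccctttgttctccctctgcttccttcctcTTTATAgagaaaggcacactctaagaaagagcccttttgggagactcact

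CCGCCC was found in 5 of the 7 promoters (Ptgds, Ptgs2, Ptges, Hpgd and Alox5) and in 30.5% of the 33469 promoters of the same length. In Ptgds it occurred at 2 overlapping positions, starting 151 and 147 bases before the gene start. Ptgs2 alone of the 7 held CACGTG, 55 bases before its start, and CCAAT, read on the other strand. These motifs were found in 5.59% and 34% of all promoters. TATAAA was found in Tbxas1 of the 7, only as read on the other strand, and on either strand in 12.9% of all. The GC content was 62.0% in Ptgds, 57.2% in Ptgs2, 60.0% in Hpgd, 62.8% in Alox5 and 42.8% in Tbxas1, against a median of 51.2% over all promoters. Neither the brain pair nor the lung trio shared a motif of these 4 that the other set lacked.

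Of 58 other gene symbols of the pathway that were listed, 49 were measured. Taking the brightest probe set per gene, 9 (18.4%) were enriched in liver, 0 in brain and 9 (18.4%) in lung, where 9.61%, 11.7% and 11.5% of all genes were. At an unadjusted limma p under 0.05 with no fold limit, 21 of the 49 were above both other tissues in liver, 4 in brain and 17 in lung, where 31.2%, 24.8% and 27.4% of all genes were. Among phospholipases A2, which release arachidonic acid, 4 of 13 were enriched in lung. Pla2g1b read 10.37 ± 0.09 (SD, n = 3) there against 4.79 ± 0.13 in liver (47.8-fold), and Pla2g2d, Pla2g2a and Pla2g15 were 23.0-fold, 7.54-fold and 2.51-fold above the next tissue. The cytosolic enzyme Pla2g4a read 7.19 in lung, 6.53 in liver and 5.07 in brain, within 2-fold of liver.

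Further leukotriene enzymes went with Alox5 and Alox5ap in part: 4 of 9 measured were enriched in lung. Lta4h, which makes leukotriene B4, was 3.47-fold higher in lung than in liver, where it read 9.21 ± 0.02 (SD, n = 3). The peptidases Dpep1 and Dpep2, which trim cysteinyl leukotrienes, were 15.5-fold and 2.39-fold above the next tissue, and the lipoxygenase Alox12 2.46-fold. Ltc4s, which makes leukotriene C4, was not enriched, at 6.45 in lung, 5.90 in liver and 5.65 in brain.

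Liver had its enriched genes in other roles. Of 8 other prostanoid enzymes 3 were: Ptgr1, a reductase of prostaglandins and leukotriene B4, at 10.35 ± 0.03 (SD, n = 3) in liver and 8.10 ± 0.02 in lung (4.77-fold), Hpgds as above, and Prxl2b, which makes prostaglandin F2 alpha, at the limit with 2.0-fold. Of 11 receptors 2 were: Ptger3, a prostaglandin E2 receptor, 8.81-fold above the next tissue, and Ptgfr, the prostaglandin F receptor, 2.45-fold. Of 5 genes of the epoxide branch, in which cytochrome P450 enzymes make epoxides and hydrolases open them, 4 were: Cyp2j3 (9.38-fold), Ephx2 (7.17-fold), Cyp2j4 (5.99-fold) and Ephx1 (3.43-fold). A second, dimmer probe set was also enriched in liver, with a smaller step, for Ptger3 (6.66 in liver, 4.85 in brain) and Cyp2j3 (7.27 and 5.63). The lung count rose to 14 under the curve through the hybridisation controls, a scale for which no share of all genes is given. The plot of the pathway by role shows lung outlined among phospholipases and leukotriene enzymes and liver outlined among receptors and the epoxide branch.

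**Figure D2:**
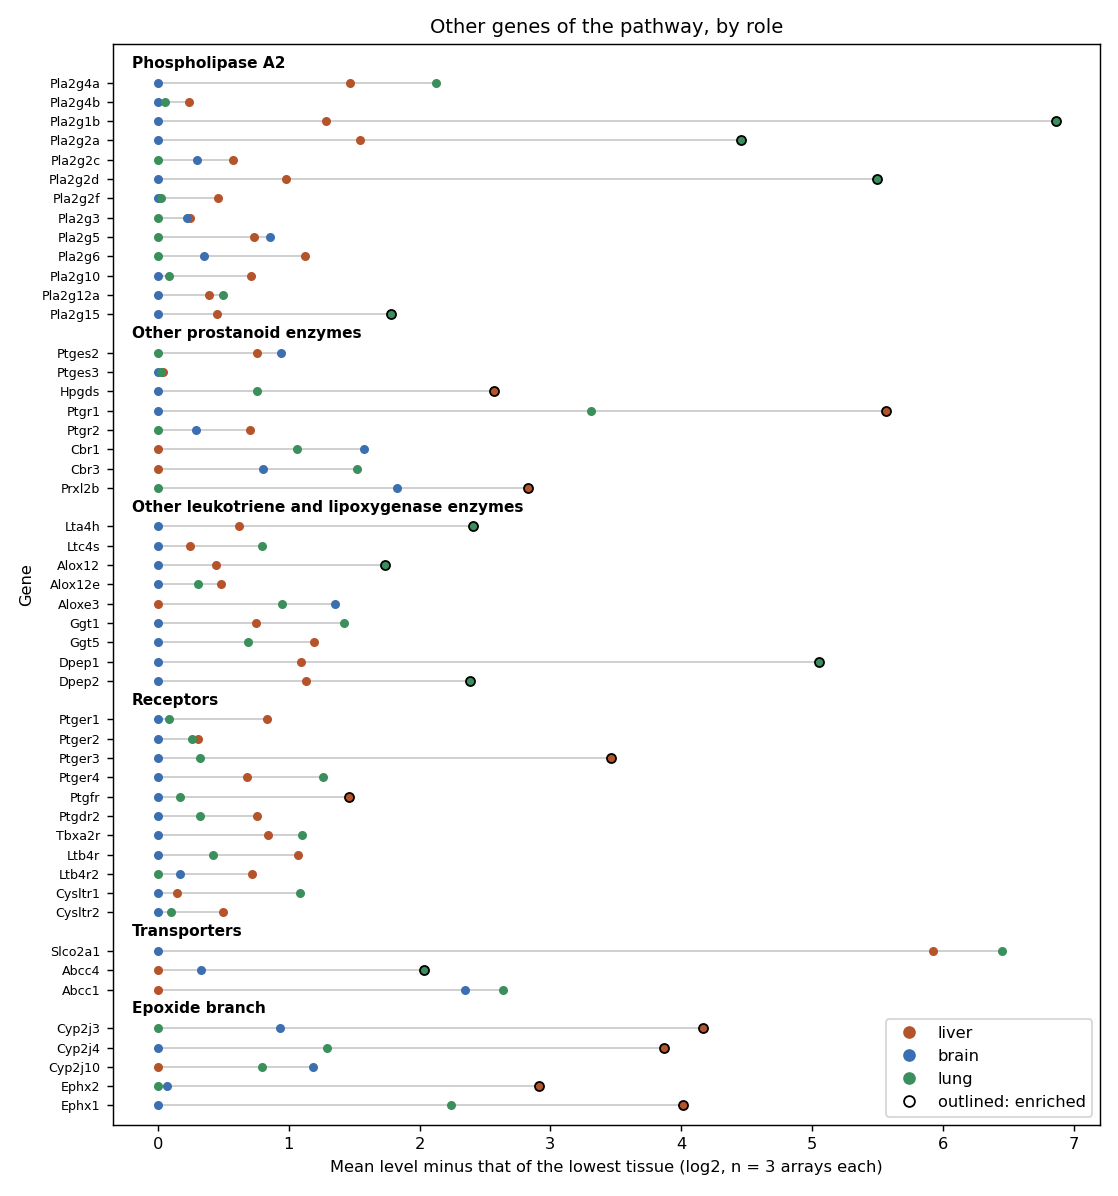
Mean levels of 49 pathway genes (brightest probe set, n = 3 arrays per tissue) minus the mean of the lowest tissue (log2; horizontal axis), grouped by role; black outlines mark enriched tissues. Outlines are green (lung) for 4 phospholipases A2, 4 leukotriene and lipoxygenase enzymes and Abcc4, and red-brown (liver) for 3 prostanoid enzymes, 2 receptors and 4 genes of the epoxide branch; with the curve through hybridisation controls 14 genes were enriched in lung.

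Across the mixtures, Ptgds followed the labelled share of brain. From the highest share down, its mean was 12.90 in brain, 12.50 in 25/70/5, 12.07 in 45/45/10, 11.94 in 50/40/10, 11.84 in 60/35/5, 11.81 in 65/34/1, 11.67 in 50/30/20, 11.65 in 55/30/15, 11.49 in 70/25/5, 11.47 in 5/25/70, 11.19 in 55/20/25 and 9.62 in 70/5/25, before lung at 4.25 and liver at 3.92. Arrays of neighbouring groups overlapped for 3 of the 13 steps, each between groups whose brain shares are within 1 percentage point. Ptgs2 kept the same broad order with more overlap, for 9 of 13 steps, and its mean in 70/5/25 (4.57) was close to that in pure lung (4.65).

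Hpgd followed the share of lung. On 1376191_at the means were 9.01 in 5/25/70, 8.23 in 70/5/25, 7.85 in 55/20/25, 7.43 in 50/30/20, 7.03 in 55/30/15, 6.45 in 50/40/10, 6.31 in 45/45/10, 5.89 in 70/25/5, 5.54 in 60/35/5, 5.49 in 25/70/5 and 4.60 in 65/34/1. Neighbours overlapped for 3 of 13 steps, and the arrays of 65/34/1 (4.44, 4.65 and 4.71) fell within the spread of pure liver. The number of overlapping steps was 5 for the other Hpgd probe set, 6 for Alox5ap, 8 for Ptgis, 9 each for Alox5 and Tbxas1, 11 for Alox15 and 12 of 13 for each Ptges probe set.

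**Figure D3:**
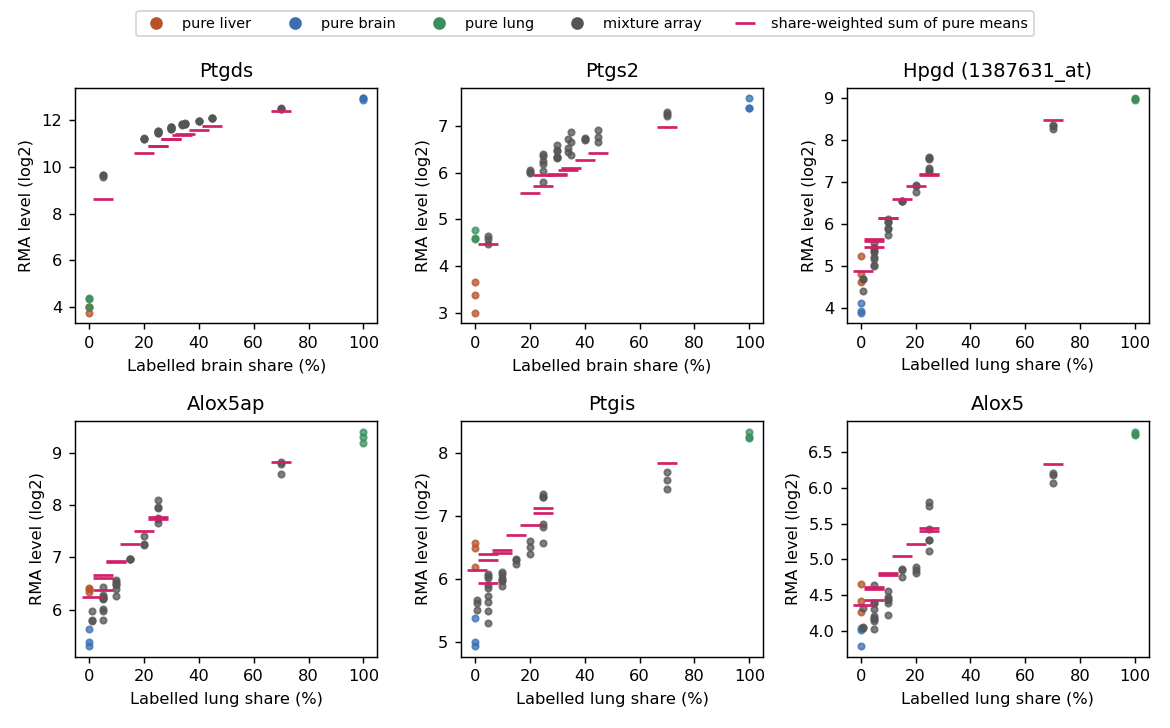
Levels (log2, RMA) of 6 members in every array against the labelled share (%) of the tissue in which they were enriched; coloured points are pure tissues, grey points mixtures, and pink dashes the share-weighted sums of the pure means. Ptgds rises from 9.62 at 5% brain to 12.50 at 70% with all mixture means above the sums, while Alox5ap and Alox5 lie below the sums in 10 of 11 mixtures.

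Of the pairs of mixtures that exchange 2 tissues and keep the third fixed, or nearly so, 4 were compared. Differences in these pairs were called at an adjusted p under 0.05 with no fold limit. In 70/25/5 against 25/70/5, where liver replaces brain, 10 of 13 probe sets were called, 8 higher in the liver-rich mixture and 2 higher in the brain-rich one; of all probe sets 53% were called, 22.1% and 30.9% in these directions. Ptgs1 (1368259_at) read 6.54, 6.56 and 6.54 against 5.54, 5.64 and 5.59, a log2 difference of 0.96 ± 0.08 SE. Ptgs2 moved the other way, from 6.20, 6.35 and 6.41 to 7.23, 7.27 and 7.31, a difference of -0.95 ± 0.12. Ptgds differed by -1.0 ± 0.06, where share-weighted sums of the pure tissues gave -1.48.

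In 70/25/5 against 5/25/70, where liver replaces lung and brain stays at 25%, 11 were called, 3 higher in the liver-rich mixture and 8 higher in the lung-rich one, beside 61.3% of all (30.7% and 30.6%). Ptgds read 11.51, 11.47 and 11.50 against 11.45, 11.44 and 11.51, a difference of 0.03 with a 95% interval of -0.10 to 0.15 (limma adjusted p = 0.705). The arrays overlapped. The lung genes separated: Hpgd differed by -3.12 and -2.99 (log2, liver-rich minus lung-rich) on its probe sets, Alox5ap by -2.43, Alox5 by -1.71 and Ptgis by -1.62. Ptgs2 was higher by 0.28 in the liver-rich mixture (interval 0.03 to 0.53, limma adjusted p = 0.0445), although pure lung was above pure liver and linear mixing gave -0.25. Its arrays overlapped too, at 6.20 to 6.41 in the liver-rich mixture and 5.81 to 6.26 in the lung-rich one.

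In 70/25/5 against 70/5/25, where brain replaces lung, 10 were called, 2 higher in the brain-rich mixture (Ptgds and Ptgs2) and 8 higher in the lung-rich one, beside 46.8% of all (21.4% and 25.4%). Ptgds differed by 1.87 (2.27 by linear mixing) and Ptgs2 by 1.75 (1.24), while Hpgd differed by -2.34 and -2.25 and Alox5ap by -1.70. The smallest step in lung, 60/35/5 against 65/34/1, gave 2 calls, both Hpgd probe sets and both higher at 5% than at 1% lung, beside 2.5% of all probe sets (2.21% higher at 5% lung and 0.287% lower). Probe set 1376191_at read 5.34, 5.62 and 5.68 at 5% lung and 4.44, 4.65 and 4.71 at 1%, a difference of 0.95 ± 0.17 SE (limma adjusted p = 0.000438). Probe set 1387631_at differed by 0.84 ± 0.10 (2.25e-07). Alox5ap (0.33, adjusted p = 0.0516) and Ptgis (0.33, 0.0967) were not called.

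With linear mixing, a mixture holds the share-weighted sum of the pure levels. Departures from it, observed minus that sum and averaged over the 11 mixtures, were called by limma at an adjusted p under 0.05 and at least 1.5-fold. Of the 13 probe sets 0 were called, beside 5.17% of all (0.325% above and 4.84% below the sum), and 11 had an unadjusted p under 0.05, as did 85% of all. Ptgds lay above the sum in 11 of 11 mixtures, by 0.49 ± 0.05 (log2, SE) on average, from 0.11 in 25/70/5 to 0.99 in 70/5/25. Ptgs2 lay above it in 11 of 11 as well, by 0.39 ± 0.08. The other 11 probe sets lay below it on average, from -0.10 for Ptges 1368014_at to -0.45 for Ptgs1 1368259_at. The median of all probe sets was -0.22, with 15.8% above 0, and that of the members -0.26, with 2 of 13 above 0. Both brain-enriched members were above the sum. The lung-enriched ones lay below it, as most probe sets of the arrays did. Their means were -0.13 and -0.11 for Hpgd, -0.23 for Alox5, -0.26 for Alox5ap, -0.28 for Alox15, -0.35 for Ptgis and -0.39 for Tbxas1. Departures of all probe sets are not given by tissue of enrichment, so no link of the sign to a tissue is drawn. Ptgs1 1368259_at passed the limit with median centring (-0.63) and Ptgds with the curve through the hybridisation controls (0.60).

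The mixture 70/5/25, with the least brain, had the highest departure for each lung gene but Alox15. It also had the highest for Ptgds (0.99) and Ptgs1 1368259_at (-0.15), which were not enriched in lung. Of the lung genes, Hpgd lay above the sum in 70/5/25 by 0.43 and 0.38, Alox5ap by 0.24, Ptgis by 0.19 and Alox5 by 0.12. Tbxas1 and Alox15 stayed below it, at -0.08 and -0.25. Hpgd also lay above the sum in 55/20/25, by 0.07 and 0.11. In 25/70/5, with the most brain, these lung genes lay below, at -0.37 for both Hpgd probe sets, -0.38 for Alox5ap, -0.46 for Ptgis and -0.32 for Alox5. Lower values occurred in mixtures with less brain: -0.55 for Ptgis in 65/34/1, -0.48 for Alox5ap in 45/45/10 and -0.45 for Alox5 in 50/40/10. Departures of all probe sets were not summarised by mixture. The cause of this spread was not tested.

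**Figure D4:**
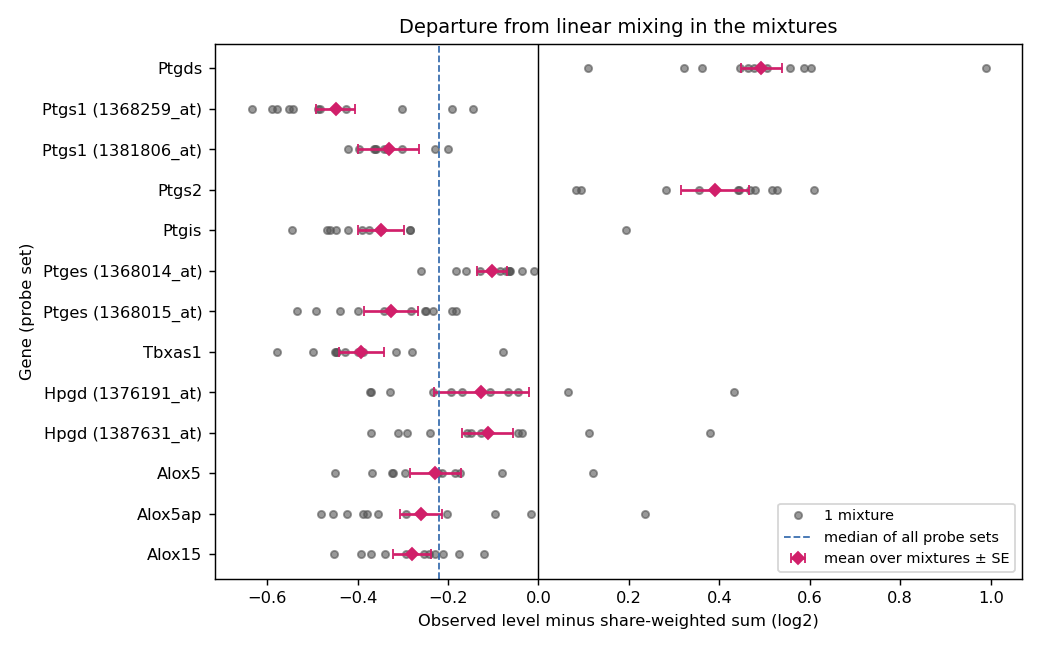
Observed level minus the share-weighted sum of pure means (log2; horizontal axis) for the 13 probe sets; grey points are the 11 mixtures, pink diamonds their mean with its SE, and the dashed line is the median of all probe sets (-0.22). Ptgds and Ptgs2 lie to the right of 0 in all 11 mixtures, and the other 11 means lie to the left; with quantile normalisation repeated the mean of Ptges 1368014_at turned to 0.01.

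Tissue levels were also estimated from the 11 mixtures alone, by regressing their linear means on the labelled shares. At an adjusted p under 0.05, 11 of the 13 probe sets were called for liver against brain (9 higher in liver and 2 in brain), beside 60.8% of all probe sets (28.6% and 32.1%). For liver against lung 10 were called (2 higher in liver and 8 in lung), beside 59.9% (29.2% and 30.7%), and for brain against lung 12 (3 and 9), beside 60.6% (28.9% and 31.7%). The Ptgds estimates were 911 ± 193 (SE) for liver, 8359 ± 288 for brain and 829 ± 293 for lung, where the pure levels were 15.1, 7641 and 19.0. The brain estimate was the highest, and the estimates for liver and lung lay far above their pure levels. For Hpgd 1376191_at the estimates were 84.3 ± 19.4, -71.2 ± 28.9 and 779 ± 29.4, against pure levels of 22.8, 15.9 and 822, and for Alox5ap 96.6, -26.9 and 624, against 83.9, 43.3 and 630. A negative estimate is not a possible level. The Ptgs2 estimates were 30.9 for liver, 218 for brain and 11.4 for lung, against 10.2, 176 and 25.1, and liver against lung was not called for Ptgs2 (limma adjusted p = 0.140) or Ptgds (0.860).

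For members enriched by a difference of at least 2 (log2), the 3 genes with the nearest pattern over the 14 group means were listed by root mean square distance after centring each gene on its own mean. For Ptgds they were Zcchc18 (0.28), the GABA-synthesising enzyme Gad1 (0.28) and the myelin gene Mobp (0.33). Ptgs2 lay nearer to its neighbours, D430041D05Rikl (0.07), the glutamate receptor Grm3 (0.09) and Tiam1 (0.10). Near Hpgd were the cardiac myosin Myh6 (0.08), Myzap (0.11) and Col6a5 (0.12) for 1376191_at, and Crip1 (0.11), Tmc4 (0.12) and Gpnmb (0.12) for 1387631_at, so its 2 probe sets shared none of the 3. Alox5ap had the leukocyte genes Sash3 (0.07), Arhgdib (0.08) and Fcmr (0.08), and Alox5 had Upp1 (0.08), Zyx (0.09) and the endothelin gene Edn1 (0.09).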

How the data were processed

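The authors deposited 1 log2 value per probe set and array, made with RMA per the submitters' processing notes. Its version is not named in the sources used here, and the log base was taken from the range of the values, 2.12 to 14.43. RMA makes array distributions alike, which can scale tissues unevenly when their RNA is spread differently over genes. The tests ran on 31042 probe sets, without 57 for controls. The platform annotation names 1 gene for 20826 of these, several for 436 (not named here) and lists no entry for 9780.

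Group means of the 42 arrays were fitted together in limma (version 3.58.1, R 4.3.3; 28 residual plus 4.56 prior degrees of freedom), with Benjamini-Hochberg adjustment across the 31042. The delta method gave the errors of departures. The regression on mixtures alone took 11 linear means with a variance trend. Of all array pairs 0 were identical. Precision is limited by the number of arrays.

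The members, pathway genes, marker lists and alternatives were chosen with earlier results of these data known. Named were all members, of each pathway role up to 4 enriched genes and all enriched in liver, and the 3 nearest genes of members enriched by a log2 difference of 2 or more; other pathway and marker genes were named after their values were seen. As alternatives, the fit used pure arrays alone, arrays of 2 mixtures alone, or a variance trend; the scale used median centring, repeated quantile normalization, a curve through the controls bioB, bioC, bioD and cre (taken as equal in amount, which was not tested), or subtraction of the 5th percentile with a floor of 4; probe sets were limited to a highest group mean over 5.73 or to 1 per gene; mixing was taken on the log2 scale; and each array was left out in turn.

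Calls for a pair of pure tissues, for a pair of mixtures and for departures were tested on simulated arrays of 31042 probe sets. The simulated mixtures followed linear mixing exactly, apart from the changes put in. For pure tissues with the 2-fold limit, 50% of true 2-fold and 100% of 4-fold changes were recovered, with 0 false calls. For a pair of mixtures, 40% were recovered at 1.25-fold and 94% at 1.5-fold, with 7 false calls. For departures, 42% were recovered at 1.5-fold and 100% at 2-fold. Plots were made in matplotlib 3.10.9 (Python 3.11.15).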

Additional observations from a re-analysis of the deposited data

How the results depend on the processing

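No paired analysis was possible because the labels give no replicate numbers; those used here only name arrays, in accession order within a group. With 3 arrays of 1 RNA per group, differences near the 2-fold limit and levels near those of the bacterial controls are the least secure. The counts of calls in this section have no share of all probe sets or genes beside them. Such shares are given for the deposited values with all arrays only. Whether a changed count is particular to the members was not tested. Median centring gave 8 calls for liver against brain and 1 departure (Ptgs1 1368259_at). Subtraction of the 5th percentile gave 9 for liver against brain. The curve through the hybridisation controls gave 14 pathway genes enriched in lung, 1 departure (Ptgds), 2 calls for 70/25/5 against 25/70/5, 0 for 60/35/5 against 65/34/1, and 5 from mixtures alone for liver against brain. With 1 probe set per gene, 60/35/5 against 65/34/1 gave 1 call. With a share-weighted mean of log2 levels in place of the sum, 4 probe sets of the members departed, and the departures of Hpgd (1.47 and 0.96), Alox5 (0.0881) and Alox5ap (0.32) turned positive. The share-weighted mean of log2 levels never exceeds the log2 of the sum, so under it departures can only rise. The cause of the other changes was not tested, except that 1 probe set per gene leaves Hpgd with 1.

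Other signs turned as follows. Ptgs1 1381806_at, liver minus lung, became 0.25 with centring, 0.26 with repeated quantile normalization, and ranged from -0.17 to 0.12 when single arrays were left out (0.0458, 0.0339 and 0.119 without liver replicate 1, lung replicate 1 and lung replicate 3). Ptges 1368014_at, liver minus lung, became 0.24 with centring and 0.0506 without liver replicate 3, and ranged from -0.0950 to 0.0506 over the arrays left out; its departure became 0.0092 with repeated quantile normalization. With the curve, Ptges 1368015_at became -0.24 (liver minus brain) and -0.15 (liver minus lung), and liver minus brain became -0.35 for Hpgd 1376191_at, -0.36 for Alox5 and -0.66 for Alox15. Tbxas1 fell under 2-fold for liver minus lung with centring (-0.77) and repeated quantile normalization (-0.67), and for liver minus brain with the curve (0.16). Leaving out single arrays gave 4 to 6 calls for liver against brain, 7 to 8 for liver against lung, 10 to 11 for brain against lung, 7 to 9, 8 to 10, 10 to 11 and 2 to 3 for the 4 pairs of mixtures in the order given, and 0 departures.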
